A study of Mus musculus with 9 samples.

Results

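The 10 genes Gclc, Gclm, Gss, Gsr, Gpx1, Gpx4, Gstm1, Gsto1, Mgst1 and Glrx encode the enzymes that make glutathione, return it to its reduced form and spend it. They were taken by name, each matching 1 of the 20627 features in the count table. Counts were high enough to test 9 of them; Mgst1 had almost none.

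Glutathione is a small peptide built from glutamate, cysteine and glycine. Glutamate-cysteine ligase, a catalytic subunit (Gclc) joined to a modifier subunit (Gclm), makes the first bond and sets the rate, and glutathione synthetase (Gss) adds glycine. Glutathione reductase (Gsr) uses NADPH to restore the oxidised form, glutathione peroxidases (Gpx1, Gpx4) use it to reduce peroxides, glutathione transferases (Gstm1, Gsto1, Mgst1) join it to or use it on other molecules, and glutaredoxin (Glrx) uses it to release glutathione from protein thiols. Macrophages, which make oxidants to kill microbes, use this system to limit damage to themselves, and the transcription factor NRF2 is a known activator of several of these genes.

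Polyadenylated RNA was sequenced from RAW264.7, an established mouse macrophage-like line derived from a virus-induced tumour, in 3 groups of 3 libraries. HG cells received glucose at 35 mmol/l for 6 h. HG-SIG cells received the same glucose for the same time together with sitagliptin phosphate, an inhibitor of dipeptidyl peptidase 4 used in type 2 diabetes. NC was taken as the control; the labels give no glucose level or time for it. The sitagliptin dose is not given, and no group had sitagliptin without added glucose or an osmotic control, so glucose and osmolarity cannot be told apart in HG against NC. All 9 libraries carry the same batch label. Nothing says that replicates were separate cultures, so p-values measure the spread between these libraries, which may be technical.

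Library totals ran from 23285821 to 31571578 counts. HG replicate 3 had the smallest total. In CPM (counts corrected for the size of each library) it was the lowest of its group in 9 of the 9 tested glutathione genes. In TPM, which also divides by gene length, it was not the lowest for Gclc, Gclm and Gstm1. Values without HG replicate 3 are given where it moved a result. The 10 macrophage markers were all detected, and their summed level was 11370 to 11820 CPM in NC libraries, 10260 to 11030 in those of HG and 5327 to 5427 in those of HG-SIG. Lymphocyte, epithelial, fibroblast and endothelial markers never passed 6 counts in a library. In bulk RNA, fewer cells of a type and less RNA per cell cannot be told apart.

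Upstream sequence is shown for the gene that changed most, Glrx, and for Gclm, a tested gene whose upstream window held the sequence associated with NRF2. Both come from RefSeq (GRCm38.p6), which gave windows for 8 of the 10 genes, all but Gclc and Gsr. Each stretch runs 5′ to 3′ on the gene's own strand and ends at the base before the gene's first exon in GENCODE M21. Glrx lies on the plus strand at chr13:75839635-75839867 and Gclm on the plus strand at chr3:122245307-122245556. In Glrx the capitals mark an AP-1 motif (TGANTCA); in Gclm they mark, on either strand, 1 antioxidant response element core (TGACNNNGC) and 3 GC boxes (GGGCGG).
Glrx: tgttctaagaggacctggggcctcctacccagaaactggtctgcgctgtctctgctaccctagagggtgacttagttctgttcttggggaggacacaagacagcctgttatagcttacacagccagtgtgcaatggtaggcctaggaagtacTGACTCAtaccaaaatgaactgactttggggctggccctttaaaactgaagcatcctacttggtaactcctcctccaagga
Gclm: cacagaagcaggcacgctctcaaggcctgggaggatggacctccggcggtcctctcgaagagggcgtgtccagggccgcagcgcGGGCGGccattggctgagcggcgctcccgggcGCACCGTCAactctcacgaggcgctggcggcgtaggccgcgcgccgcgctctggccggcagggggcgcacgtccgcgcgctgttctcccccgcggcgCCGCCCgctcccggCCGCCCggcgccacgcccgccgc

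Over 32851 windows of 250 bases upstream of mouse RefSeq genes, both strands searched, the response element core was found in 10.2%, the AP-1 motif in 6.75%, the GC box in 32.7% and the E-box CACGTG in 6.02%. The core was also in 1 of the Mgst1 windows and not in those of Gss, Gpx1, Gpx4, Gstm1, Gsto1 or Glrx. The AP-1 motif was found in Glrx alone among the 8 genes, and the E-box in none. These are matches of letters and not measured binding.

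In HG against NC, 4 of the 9 tested genes rose (Gclc, Gclm, Gpx1 and Gsto1) and 1 fell (Glrx), with Gss, Gsr, Gpx4 and Gstm1 not called. A call is an adjusted p under 0.05 in edgeR's quasi-likelihood test, adjusted over all 13311 genes tested; 29.5% of those genes were called, 14.3% higher and 15.2% lower. The size of the changes differed: the 4 rises lay between 1.18 and 1.29-fold, while Glrx fell 2.67-fold (log2 fold change -1.41). The libraries of HG and NC did not overlap in 5 of the 9, against 41.7% of all genes. The median absolute log2 change was 0.24 in the 9 genes and 0.14 over all tested genes.

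In HG-SIG against HG, Gclc, Gpx1, Gpx4 and Glrx fell and Gclm and Gss rose, with the Gclc and Gpx4 calls and the smaller Gclm call depending on scaling as given below. That made 6 calls of 9, against 52.5% of all genes called, 25.7% higher and 26.8% lower. The groups did not overlap in 5 of 9, against 58.7% of all genes. HG-SIG against NC also gave 6 calls, 3 higher (Gclm, Gss and Gsto1) and 3 lower (Gpx1, Gpx4 and Glrx), where 58.6% of all genes were called, 29.9% higher and 28.7% lower. Here 7 of the 9 did not overlap, against 65.9% of all genes. These shares lie near their backgrounds. The 3 comparisons share libraries with one another, so their values are set side by side and no overlap between them is counted.

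**Figure D1:**
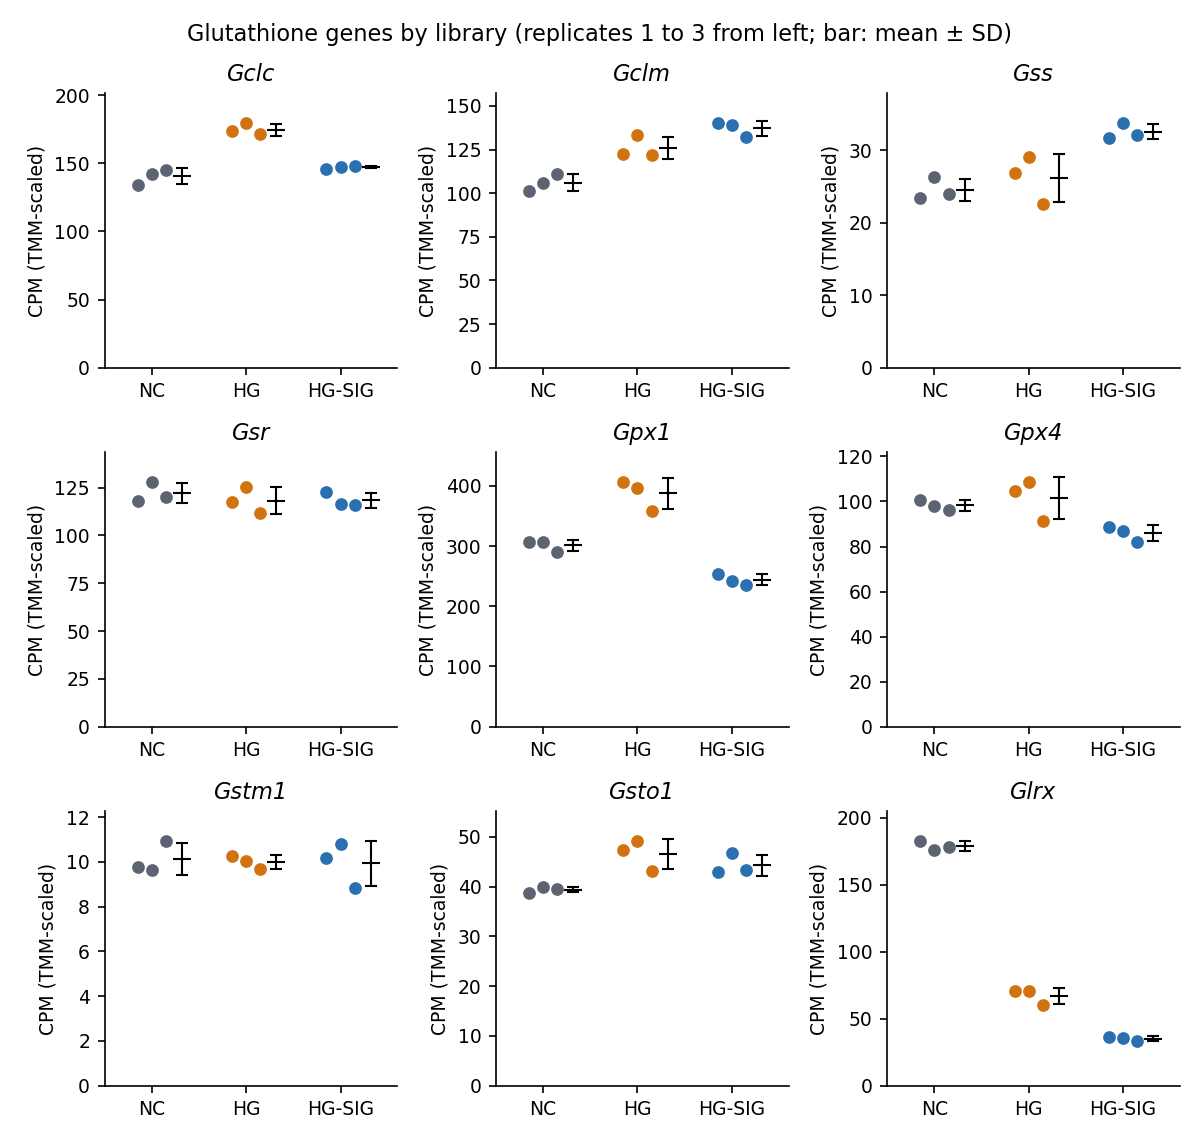
Level of each of the 9 tested glutathione genes in every library, in TMM-scaled CPM, on axes that start at 0. Points are replicates 1 to 3 of NC, HG and HG-SIG, and the bar beside them is the mean ± SD. Glrx steps down from 179 in NC to 67.1 in HG and 35.2 in HG-SIG, Gpx1 is highest in HG, and Gsr and Gstm1 stay level.

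Levels below are CPM scaled by TMM (trimmed mean of M-values, which sets libraries to a common centre), with n = 3 libraries a group, and changes are log2 fold changes ± SE. Gclc (ENSMUSG00000032350, chr9:77754535-77794485, GRCm38), the catalytic subunit of the ligase, stood at 134, 142 and 145 in NC. In HG it stood at 173, 179.6 and 171, and in HG-SIG at 146, 147 and 148. All HG libraries lay above all others, and those of HG-SIG lay just above those of NC. Gclc rose in HG against NC (140.5 ± 5.70 to 174.7 ± 4.39; log2 0.31 ± 0.04, adjusted p = 4.2e-05). It fell in HG-SIG against HG (-0.25 ± 0.04, adjusted p = 0.00013), a call that held with scaling by library size alone (-0.09) but not with limma on log2(TPM + 1) (-0.04, adjusted p = 0.257). HG-SIG against NC gave 0.07 ± 0.04 (adjusted p = 0.159), with a 95% interval of -0.01 to 0.14. That reading depended on scaling. Gclc was called higher than in NC with library size alone (0.26, adjusted p = 3.61e-05) and with limma (0.30, adjusted p = 1.09e-05). The median change of all genes was 0.21 and 0.23 under those scalings.

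Gclm (ENSMUSG00000028124, chr3:122245557-122270732), the modifier subunit that makes the ligase less sensitive to feedback by glutathione, followed another course. Its levels were 101.5, 106 and 111 in NC, 122.7, 133 and 122 in HG, and 140.3, 139 and 132 in HG-SIG. NC was lowest throughout, and the highest HG library lay within the range of HG-SIG. Gclm rose in HG against NC (106.1 ± 4.83 to 125.9 ± 6.48; 0.25 ± 0.05, adjusted p = 0.0016) and in HG-SIG against NC (137.1 ± 4.38; 0.37 ± 0.05, adjusted p = 2.1e-05). The step from HG to HG-SIG was small (0.12 ± 0.05, adjusted p = 0.0421): DESeq2 did not call it (adjusted p = 0.0726), nor did 5 of the 9 fits that left out a library, those without NC replicate 2, HG replicate 1, HG replicate 3, HG-SIG replicate 1 or HG-SIG replicate 2 (adjusted p = 0.0556 to 0.134). With library size alone it was 0.28, in the same direction. Of its exonic bases, 4.71% overlap Gm17494 on the other strand, and the strand setting of the counting is not given.

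Within each library the ratio of Gclc to Gclm does not depend on how libraries are scaled. In TPM, which also divides each gene's counts by its length, it was 2.21, 2.25 and 2.18 in NC, 2.36, 2.25 and 2.35 in HG, and 1.74, 1.77 and 1.87 in HG-SIG. The groups did not overlap, though the highest NC library and the lowest HG library were 2.247 and 2.249. NC averaged 2.21 ± 0.03, HG 2.32 ± 0.06 and HG-SIG 1.79 ± 0.07. The log2 difference was -0.37 ± 0.04 for HG-SIG against HG and -0.30 ± 0.03 for HG-SIG against NC, so Gclm was higher relative to Gclc with sitagliptin present than in either other group. An exact two-sided permutation test gave p = 0.1 for each, also after adjustment over the 6 ratio comparisons, which is the smallest p that 3 against 3 allows.

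Gss (ENSMUSG00000027610, chr2:155563181-155592810, minus strand), which completes the peptide, had the lowest level of the 9 per length. It measured 23.4, 26.3 and 23.9 CPM in NC, 26.8, 29.1 and 22.6 in HG, and 31.75, 33.8 and 32.2 in HG-SIG. NC and HG overlapped, and all HG-SIG libraries lay above both. The change in HG against NC was 0.10 ± 0.08 (adjusted p = 0.396); without HG replicate 3, the lowest of the 9 libraries, it was 0.19 ± 0.06 and called (adjusted p = 0.0429). Gss rose in HG-SIG against HG (26.2 ± 3.31 to 32.6 ± 1.07; 0.31 ± 0.08, adjusted p = 0.00459) and against NC (0.41 ± 0.08, adjusted p = 0.00055), and both calls held under each of the 4 scalings. Without HG replicate 3 the first was 0.23 ± 0.06 (adjusted p = 0.00779). Of its exonic bases, 6.68% overlap Acss2 on the other strand.

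Gsr (ENSMUSG00000031584, chr8:33652523-33698163), the reductase that restores used glutathione, was level across the groups. Its CPM was 118, 128 and 120.0 in NC, 118, 125 and 112 in HG, and 122.9, 116 and 116 in HG-SIG. All 3 groups overlapped. Changes were -0.05 ± 0.05 in HG against NC, 0.00 ± 0.05 in HG-SIG against HG and -0.04 ± 0.05 in HG-SIG against NC, with adjusted p = 0.532, 0.983 and 0.459 and 95% intervals within -0.14 and 0.10. With library size alone Gsr was higher in HG-SIG than in HG by 0.16 (adjusted p = 0.008) and than in NC by 0.15 (adjusted p = 0.012), close to the shift of all genes under that scaling.

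Gpx1 (ENSMUSG00000063856, chr9:108338903-108340343), the main cytosolic peroxidase and a selenoprotein, was the most abundant member in every group. It measured 306.5, 307 and 291 CPM in NC, 407, 397 and 359 in HG, and 254, 242.5 and 236 in HG-SIG. No groups overlapped: HG was highest and HG-SIG lowest. Gpx1 rose in HG against NC (301.5 ± 9.24 to 387.6 ± 25.3; 0.36 ± 0.05, adjusted p = 0.00011) and fell in HG-SIG against HG (244.3 ± 9.25; -0.67 ± 0.05, adjusted p = 2.7e-07). Both calls held under each of the 4 scalings and without HG replicate 3 (0.41 and -0.71). HG-SIG against NC was -0.30 ± 0.05 (adjusted p = 0.00017), but -0.11 with library size alone (adjusted p = 0.0512) and -0.07 with limma (adjusted p = 0.176).

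Gpx4 (ENSMUSG00000075706, chr10:80047166-80056439), the selenoprotein that reduces lipid peroxides in membranes, changed less. Its CPM was 101, 98.0 and 96.0 in NC, 105, 109 and 91.1 in HG, and 88.7, 87.1 and 81.8 in HG-SIG. NC and HG overlapped, and HG-SIG lay below both. Gpx4 was 0.05 ± 0.06 in HG against NC (adjusted p = 0.569). It fell in HG-SIG against HG (-0.24 ± 0.06, adjusted p = 0.00346; -0.31 without HG replicate 3) and against NC (-0.19 ± 0.06, adjusted p = 0.0113), but neither was called with library size alone (-0.08, adjusted p = 0.219, and -0.004, adjusted p = 0.956), and limma gave -0.03 and 0.04. Without HG-SIG replicate 3 the call against NC was lost (adjusted p = 0.0525). Its transcript is 99.7% identical over 733 bases to the pseudogene Gpx4-ps2, which has no row in the table, so its counts could include or lack shared reads.

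The ratio of Gpx1 to Gpx4, per length and within a library, was 3.65, 3.75 and 3.62 in NC. It was 4.65, 4.37 and 4.71 in HG and 3.43, 3.33 and 3.45 in HG-SIG. Every HG library lay above every NC library, and every HG-SIG library lay below. The log2 difference was 0.32 ± 0.04 in HG against NC, -0.43 ± 0.04 in HG-SIG against HG and -0.11 ± 0.02 in HG-SIG against NC, each with an exact two-sided permutation p = 0.1, the smallest possible. The peroxidases therefore changed unequally whatever the scaling.

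**Figure D2:**
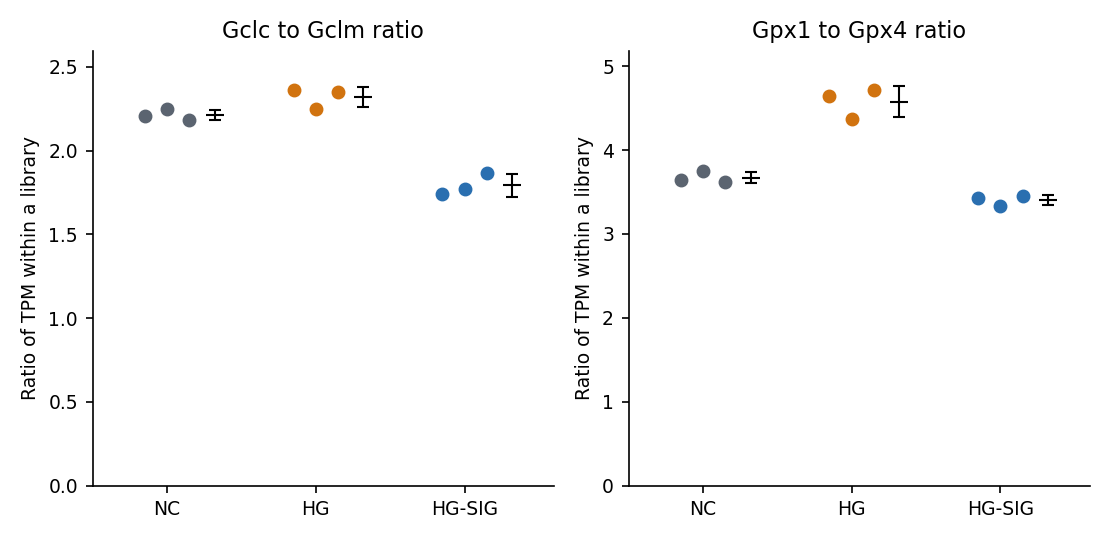
Ratio of Gclc to Gclm (left) and of Gpx1 to Gpx4 (right) in each library, in TPM over TPM, on axes that start at 0, with the mean ± SD beside the 3 libraries of each group. The mean Gclc to Gclm ratio is 1.79 in HG-SIG against 2.32 in HG, and the mean Gpx1 to Gpx4 ratio is 4.58 in HG against 3.67 in NC and 3.41 in HG-SIG.

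Gstm1 (ENSMUSG00000058135, chr3:108012255-108017973, minus strand), a cytosolic transferase of the mu class, was low and level. It measured 9.76, 9.66 and 10.9 CPM in NC, 10.3, 10.04 and 9.68 in HG, and 10.2, 10.8 and 8.83 in HG-SIG. All groups overlapped. The 3 changes were -0.02, -0.01 and -0.03, each ± 0.09, with adjusted p = 0.902, 0.92 and 0.785 and 95% intervals within -0.20 and 0.16. Only limma on TPM, of the 4 scalings, called Gstm1, as higher in HG-SIG (0.18 against HG and 0.20 against NC). Its transcript is 97.9% identical over 657 bases to the pseudogene Gstm2-ps1, which has no row in the table.

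Gsto1 (ENSMUSG00000025068, chr19:47854970-47864790), an omega-class transferase that also acts as a thiol transferase, measured 38.8, 39.8 and 39.4 CPM in NC. It measured 47.3, 49.2 and 43.15 in HG and 42.9, 46.7 and 43.3 in HG-SIG. NC was lowest throughout, and HG and HG-SIG overlapped. Gsto1 rose in HG against NC (39.4 ± 0.52 to 46.6 ± 3.10; 0.24 ± 0.05, adjusted p = 0.00383). It rose in HG-SIG against NC as well (44.3 ± 2.09; 0.17 ± 0.05, adjusted p = 0.0136), though not without HG-SIG replicate 2 (adjusted p = 0.0678). HG-SIG against HG was -0.07 ± 0.05 (adjusted p = 0.256), 0.09 with library size alone and 0.13 with limma, which called it (adjusted p = 0.014).

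Mgst1 (ENSMUSG00000008540, chr6:138140316-138156755), a membrane-bound transferase abundant in liver, had 0 counts in 8 of 9 libraries. HG-SIG replicate 2 had 1 count. A count of 0 allows up to 3 counts, or 0.095 to 0.129 CPM by library, for counting error only. Mgst1 was not detectable above that level and was not tested.

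Glrx (ENSMUSG00000021591, chr13:75839868-75850154), cytosolic glutaredoxin, which removes glutathione from proteins, changed most. It measured 183, 176 and 178 CPM in NC, 70.7, 70.4 and 60.1 in HG, and 36.6, 35.6 and 33.35 in HG-SIG. The groups were far apart, and within each the libraries were close. Glrx fell in HG against NC (179 ± 3.63 to 67.1 ± 6.06; -1.41 ± 0.06, adjusted p = 2.3e-09), the 158th lowest change of 13311. It fell again in HG-SIG against HG (35.2 ± 1.67; -0.93 ± 0.06, adjusted p = 8.3e-08), a 1.91-fold step, larger in size than 93.3% of genes. HG-SIG against NC was -2.35 ± 0.06 (adjusted p = 3.9e-12), 5.09-fold lower.

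Glrx was called in the same direction under each scaling and without each library in turn. Its HG-SIG against HG value ran from -0.94 with DESeq2 to -0.70 with limma on TPM, and without HG replicate 3 it was -1.001. Of the 9 genes it alone passed the absolute log2 fold change of 1 that the series states as its criterion, in HG against NC and in HG-SIG against NC. The summed macrophage markers were also lower in HG-SIG than in HG, and their part in the lower Glrx, Gpx1 and Gpx4 was not tested. Between NC and HG, 2 of the 10 markers rose (Csf1r 0.26 and Fcgr1 0.42) and 5 fell (Cd14 -1.05, Itgam -0.79, Spi1 -0.22, Ptprc -0.20 and Cd68 -0.14), beside the fall of Glrx, and their part in it was not tested either.

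**Figure D3:**
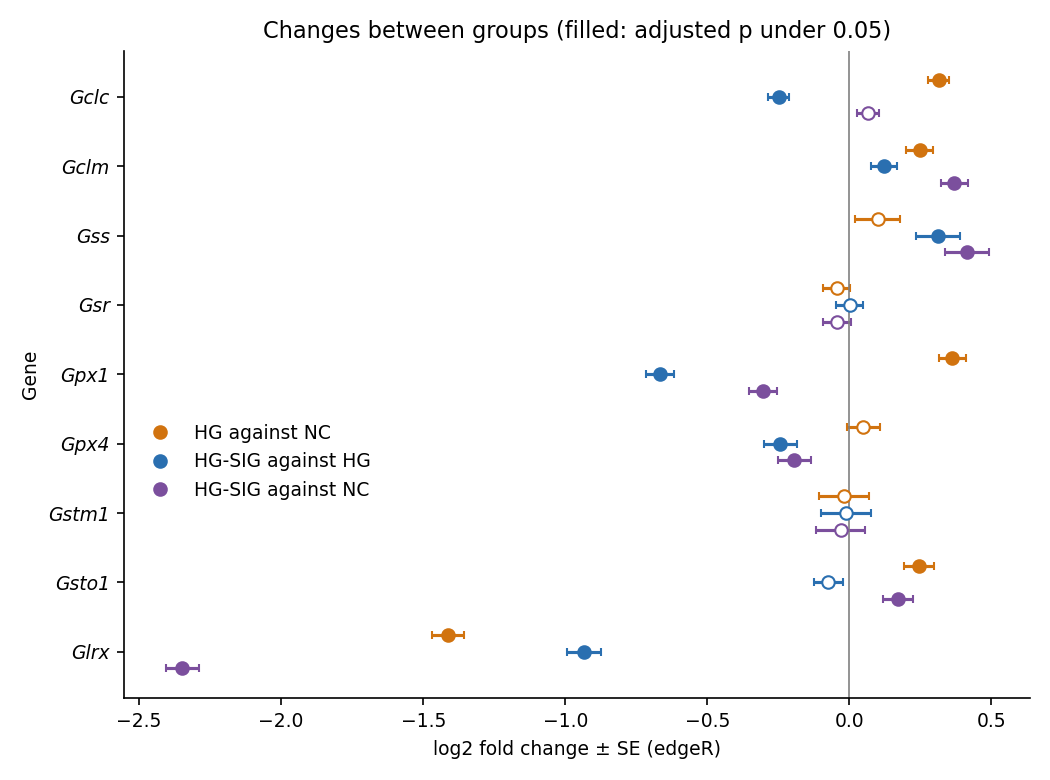
Log2 fold change ± SE of the 9 tested genes in the 3 comparisons, from edgeR with TMM scaling; filled points have an adjusted p under 0.05. Glrx lies far to the left in all 3 comparisons (-1.41, -0.93 and -2.35), Gpx1 lies right of 0 in HG against NC (0.36) and left of it in HG-SIG against HG (-0.67), and all points of Gsr and Gstm1 are open.

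Levels per length, in TPM, put the members in order within a group; they rest on the merged exon length of each gene in GENCODE M21. In NC the order was Gpx1 (668), Gpx4 (182), Gsr (141.5), Gclc (119), Glrx (104), Gsto1 (62.1), Gclm (53.9), Gstm1 (21.9) and Gss (13.2), and no neighbours overlapped between libraries. Gpx1 was 3.67-fold above Gpx4. In HG, Gclc (151) passed Gsr (140.0), and Glrx dropped to 7th place (39.8), again with no overlap between neighbours. In HG-SIG, Gsto1 (82.4) and Gclm (82.0) overlapped, as did Gstm1 (25.4) and Glrx (24.1), so Glrx, 5th in order in NC, had come down to the level of the scarce Gstm1.

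The scaling of HG-SIG libraries set how several small changes read. The median log2 change of all tested genes in HG-SIG against HG was 0.01 with TMM, 0.17 with library size alone and 0.19 with limma on TPM; against NC it was 0.02, 0.21 and 0.23. Of all called genes in HG-SIG against HG, 48.9% were higher with TMM, 76.9% with library size alone and 81.9% with limma. In HG against NC these shares were 48.4%, 58.9% and 59.1%, and all 5 calls among the glutathione genes held under every scaling. In the HG-SIG comparisons, the calls that held under all 4 were Glrx, Gpx1 and Gss against HG, and Glrx, Gclm, Gss and Gsto1 against NC.

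**Figure D4:**
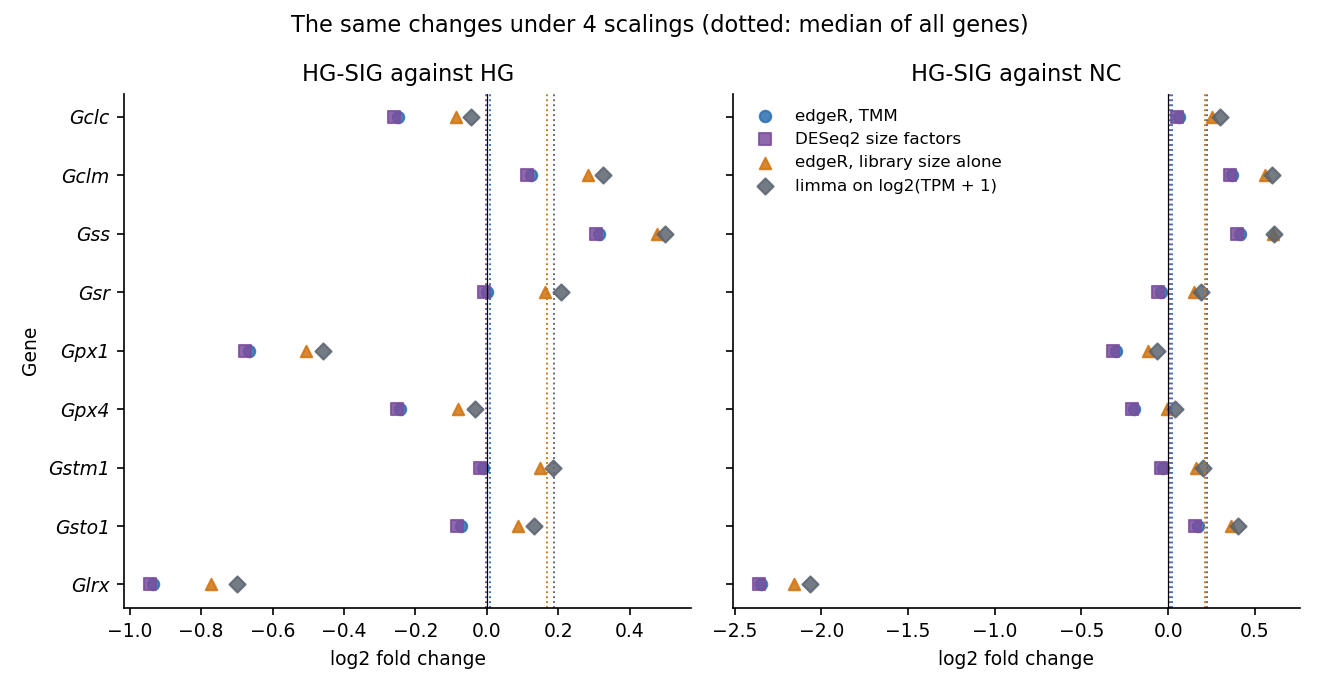
Log2 fold change of the 9 tested genes in HG-SIG against HG (left) and against NC (right) with 4 ways of scaling: edgeR with TMM, DESeq2, edgeR with library size alone and limma on log2(TPM + 1). Dotted lines mark the median of all genes under each, which lies at -0.001 with DESeq2, 0.01 with TMM, 0.17 with library size alone and 0.19 with limma on the left. From TMM to limma in the left panel, Gclc (-0.25 to -0.04) and Gpx4 (-0.24 to -0.03) come close to 0. Gsr (0.00 to 0.21) and Gstm1 (-0.01 to 0.18) leave it upward, and Gsto1 crosses it (-0.07 to 0.13). Glrx, Gpx1 and Gss stay on their side there. In the right panel Gclc moves from 0.07 to 0.30 and Gpx4 from -0.19 to 0.04.

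The wider pathway was read through 8 lists of 104 genes, 93 in the table and 77 tested. In HG against NC, 15 rose, 21 fell and 41 were not called, beside 29.5% called over all genes. In HG-SIG against HG, 16 rose, 34 fell and 27 were not called, beside 52.5%. Library size alone turned that split to 30 higher and 19 lower, beside 6093 higher and 1826 lower of all 13311 genes. For all genes limma gave 6624 higher and 1467 lower of 12109. All list counts below are descriptions from the fit over all genes with TMM. Mat2a, Cth, Ggct, Glo1, Hagh, Prdx6, Ptges, Tkt and Txnrd1 were named after their values were seen. So were Secisbp2l, Nfe2l2, Dpep2 and Slc1a5 in HG against NC, and Srxn1, Sephs1 and Esd in HG-SIG against HG.

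Of 10 genes for cysteine supply, 1 rose and 5 fell in HG against NC (median log2 change -0.31). Slc7a11, the cystine importer, stood at 43.9, 44.75 and 47.9 CPM in NC, 21.9, 27.0 and 24.5 in HG, and 9.03, 9.89 and 11.2 in HG-SIG. It fell at both steps (-0.90 ± 0.08, adjusted p = 2.4e-06, and -1.28 ± 0.09, adjusted p = 1.6e-07), with no overlap between groups. Its partner chain Slc3a2 fell in HG against NC (-0.46), as did Cth (-1.10), which makes cysteine from cystathionine, while Mat2a, which makes the methyl donor upstream of it, was the 1 that rose (0.43). Cth was scarce, at 3.985 ± 0.50 CPM in NC and 1.85 ± 0.23 in HG, and limma gave -0.81. The neutral amino acid transporter Slc1a4 fell in HG against NC (-1.74) and rose in HG-SIG against HG (1.45). The list had 2 higher and 2 lower of 10 in HG-SIG against HG, but 6 higher and 1 lower with library size alone, where Slc1a5, a glutamine carrier (-0.19), was no longer called. Slc1a5 had already fallen in HG against NC (-0.28).

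Among 12 tested genes of glutathione turnover and transport, 2 rose and 3 fell in HG against NC. In the HG-SIG step 4 rose and 5 fell, but the balance turned to 5 higher and 4 lower with library size alone and 6 higher and 3 lower with limma. Chac1, which breaks glutathione down in the cytosol, fell in HG against NC (-2.88 ± 0.10, adjusted p = 8.7e-10), from 11.3, 10.5 and 11.2 CPM to 1.60, 1.45 and 1.41. In HG-SIG it stood at 1.77, 1.73 and 1.64. The exporter Abcc1 fell at both steps (-0.62 and -0.42), from 347 ± 16.0 CPM in NC to 226 ± 14.0 in HG and 169 ± 4.31 in HG-SIG, whereas its relative Abcc5 rose at both (0.65 and 0.34). Ggct, which acts on gamma-glutamyl peptides, was called higher at both as well (0.25 and 0.27), but DESeq2 called neither (adjusted p = 0.143 and 0.0645). The dipeptidase gene Dpep2 fell at both steps (-0.61 and -0.71).

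Of 7 other peroxidases tested, Prdx5, a mitochondrial and peroxisomal peroxiredoxin, was the one called in HG against NC (-0.39, adjusted p = 0.00014). In HG-SIG against HG, Prdx2 (-0.37), Prdx4 (-0.28) and Prdx6 (-0.26) fell, and catalase, Cat, rose (0.28). With library size alone the list had 3 higher and 2 lower, and with limma 4 higher and 2 lower: Prdx6 was not called with either (-0.10 and -0.05), and Prdx4 was smaller (-0.12 and -0.07). Of 14 genes tested on the list of other transferases, 5 rose and 2 fell in HG against NC (8 and 2 with limma, 3 and 2 with DESeq2). In HG-SIG against HG 3 rose and 6 fell (4 and 5 with library size alone, 5 and 5 with limma). The list also holds Glo1, Hagh and Esd, which are not transferases. With TMM, Glo1 was among the rises and Esd among the falls at both steps. Hpgds, the glutathione-dependent prostaglandin D synthase, rose from 38.1 ± 1.22 to 53.0 ± 2.08 CPM in HG (0.48) and fell to 28.9 ± 0.88 in HG-SIG (-0.88). The microsomal Mgst2 did likewise (0.22 and -0.50). Esd, which acts on a glutathione adduct of formaldehyde, fell at both steps (-0.39 and -0.47), and Gstt3 rose in HG-SIG against HG (0.61). Ptges, the glutathione-dependent prostaglandin E synthase, fell at both steps (-1.35 and -1.54), unlike Hpgds in HG against NC.

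The other 3 glutaredoxins did not share the fall of Glrx in HG against NC: Glrx2 (0.22, adjusted p = 0.0313) and Glrx5 (0.17, adjusted p = 0.0252), both mitochondrial, rose, and Glrx3 was not called. DESeq2 did not call Glrx2 (adjusted p = 0.0634). With sitagliptin, in HG-SIG against HG, Glrx3 (-0.20) and Glrx5 (-0.17) were lower with TMM but were not called with library size alone (-0.04 and -0.01).

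NADPH, the electron source for Gsr, was followed through a list of 11 genes. Some of their enzymes, such as transketolase, transaldolase and the NAD kinases, do not make NADPH themselves. In HG against NC 3 rose and 1 fell, and 7 rose and 1 fell with either library size alone or limma. The 4 were Idh1, cytosolic isocitrate dehydrogenase, at 119 ± 9.50 CPM in NC and 208 ± 23.7 in HG (0.81 ± 0.07, adjusted p = 3.3e-06), the mitochondrial NAD kinase Nadk2 (0.51), transketolase Tkt (0.13) and the cytosolic NAD kinase Nadk (-0.71). From HG to HG-SIG none rose and 10 fell with TMM, beside 26.8% of all genes called lower. With library size alone 4 fell, beside 1826 of 13311 genes, and with limma 3 fell, beside 1467 of 12109. Idh1 (-0.69), transaldolase Taldo1 (-0.55) and glucose-6-phosphate dehydrogenase G6pdx (-0.34) were among those called under each of the 4 scalings.

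Of 8 genes for making selenoproteins such as Gpx1 and Gpx4, 2 rose and 2 fell in HG against NC, with Pstk (0.25) and Sephs1 (0.16) higher and Sephs2 (-0.17) and Secisbp2l (-0.16) lower, the last not called with limma (adjusted p = 0.0951). From HG to HG-SIG 4 rose and none fell, namely Pstk (0.36), Secisbp2l (0.27), Scly (0.20) and Sephs1 (0.13), while Gpx1 fell. Over all genes 25.7% were called higher. With library size alone and with limma all 8 were called higher, beside 6093 of 13311 and 6624 of 12109 genes. The median change of all genes was itself 0.17 and 0.19 under those scalings. Of 12 NRF2 factors and other targets, none rose and 7 fell in HG against NC, beside 15.2% of all genes called lower. Gclc and Gclm rose there, while heme oxygenase Hmox1 (-0.32), sulfiredoxin Srxn1 (-0.26) and the NRF2 partner Mafg (-0.22) fell. From HG to HG-SIG 2 rose and 6 fell (3 and 3 with library size alone), with Srxn1 (0.27) and the thioredoxin reductase Txnrd1 (0.11) higher. Hmox1 fell from 111 ± 4.06 to 62.3 ± 5.65 CPM (-0.83), as did Mafg (-0.37), and Nfe2l2, the gene of NRF2 itself, fell from 146 ± 8.82 to 116 ± 3.24 CPM (-0.34), all called under each of the 4 scalings. Nfe2l2 had already fallen in HG against NC (-0.19, adjusted p = 0.00616), from 166 ± 2.56 CPM in NC.

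**Figure D5:**
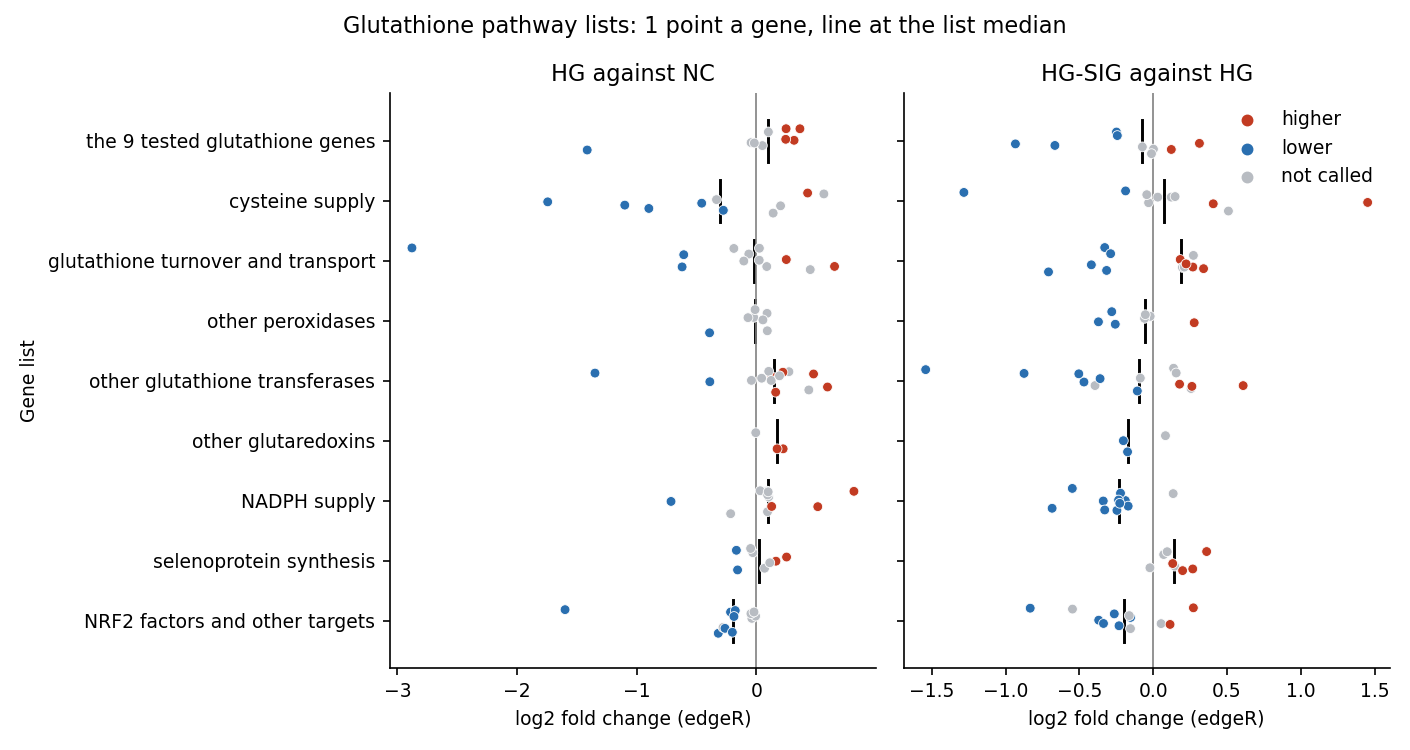
Log2 fold change of each tested gene of the glutathione set and of the 8 pathway lists in HG against NC (left) and HG-SIG against HG (right), with red points called higher, blue points called lower and grey points not called; the black line is the median of the list. NADPH supply lies left of 0 in the right panel (median -0.23), and the NRF2 list has 7 blue points and no red one in the left panel.

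The genes with a pattern most like each member's were found by the root-mean-square difference in centred log2 CPM over the 9 libraries, among 10205 genes, as a description. They were Suv39h1 (0.03) and Srsf7 for Gclc, Sirt1 (0.04) and Trim28 for Gclm, and Cfap36 (0.06) and Mfsd4b4 for Gss. For the level Gsr they were Med17 (0.03) and Ube2j2. Gpx1 was nearest to Cst3 (0.04), which encodes cystatin C, and Susd3, and Gpx4 to Rps27l (0.02) and Fkbp1a. Gstm1 was nearest to Csgalnact2 (0.04) and Ccnh, Gsto1 to Orc5 (0.03) and Dek. For Glrx the nearest were Rhoc (0.07) and Stap1 (0.09), against a spread of 0.97 in Glrx itself.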

How the data were processed

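The authors deposited whole-number gene counts, 1 column a library; Bowtie2 2.3.5, RSEM and mm10 were used, per the submitters' processing notes, so the deposited counts could be rounded RSEM estimates. Neither the annotation release nor the strand setting is stated in the labels. Unannotated loci without a gene name held 5.85% to 6.21% of a library's counts and stayed in the fit.

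Counts were filtered by group (filterByExpr), scaled with TMM and fitted as 1 model over 9 libraries with edgeR 4.0.16 in R 4.3.3; 13311 genes were tested by quasi-likelihood F-test with Benjamini-Hochberg adjustment. CPM and TPM were computed from the counts, TPM with GENCODE M21 exon lengths. Alternatives were DESeq2 1.42.0, library size alone, limma 3.58.1 on log2(TPM + 1), no count filter, 6-library fits, a replicate block and leaving out each library. For the ratios, leaving out libraries was added after seeing the data. Scripts were tested on simulated data. Intervals and floors cover counting error or replicate spread only; reads are not independent molecules.

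Members and lists were chosen with earlier results of these data known. All 10 members are named; each list names up to 3 called genes with the largest absolute change and an average log2 CPM of 2 or more, in HG against NC and in HG-SIG against HG, and each member names its 2 most alike genes. For 2 list symbols with a second row, the row with more counts was used.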

Additional observations from a re-analysis of the deposited data

How the results depend on the processing

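Of 162 results for single members under other settings, 139 kept direction and side of the threshold, 7 lost the call, 4 gained one and 12 changed sign, 6 of them called in neither fit. Those with limma were Gstm1 (0.18) and Gsto1 (0.13) in HG-SIG against HG, Gpx4 (0.042), Gstm1 (0.20) and Gsr (0.19) in HG-SIG against NC, and Gstm1 (0.016) in HG against NC. With library size alone they were Gsr (0.15) and Gstm1 (0.16) in HG-SIG against NC, Gstm1 (0.15) and Gsto1 (0.088) in HG-SIG against HG, and Gstm1 (0.011) in HG against NC, and with DESeq2 Gsr (-0.0083) in HG-SIG against HG. Of 243 with a library left out, 225 kept both, 7 lost the call, 1 gained one and 10 changed sign, none of these called. The last were Gpx4 in HG against NC (-0.0015 to 0.116), Gsr in HG-SIG against HG (-0.033 to 0.045), and Gstm1 in HG against NC (-0.049 to 0.043), HG-SIG against HG (-0.077 to 0.068) and HG-SIG against NC (-0.095 to 0.051), each given as its range. Members called higher in HG-SIG against HG were 2, but 1 with DESeq2, 5 with limma and 1 to 2 with a library left out; those called lower were 4, but 2 with limma. In HG-SIG against NC, 3 higher became 5 with library size alone and 6 with limma, and 3 lower became 1 with each. Over all genes there, library size alone called 6786 of 13311 higher and 2120 lower, and limma 7095 of 12109 and 1757. Pathway genes called higher in HG against NC were 15, but 24 with library size alone, 26 with limma and 8 to 18 with a library left out. In HG-SIG against HG they were 16 higher and 34 lower, but 30 and 19 with library size alone and 33 and 17 with limma. In HG-SIG against NC, 20 and 38 became 34 and 19, and 38 and 18. Over all genes, library size alone called 2480 of 13311 higher in HG against NC, and limma 2374 of 12109. In HG-SIG against HG library size alone called 6093 higher and 1826 lower, and limma 6624 and 1467.

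Libraries of different groups were compared by their log2 CPM after each gene's group mean was subtracted. These deviations correlated at 0.07 to 0.28 over 9 same-numbered pairs and at -0.17 to 0.05 over the 18 others. By this measure each of the 9 libraries correlated best with its own number, a hint from the data and not the design. With the replicate block, calls over all genes went from 3927 to 4663 in HG against NC, 6989 to 7563 in HG-SIG against HG and 7801 to 8282 in HG-SIG against NC, and no call among the glutathione genes changed. Depth limits Mgst1, which had 1 count in all.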
